A study of Mus musculus with 15 samples.

Results

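Accessible chromatin at 8 mouse genes with known roles at skin and mucosal surfaces was followed through bile duct injury in the liver. The genes were Lce1m, Pglyrp4, Tff1, Tff2, Tff3, Msln, Muc16 and Prss22, and they were chosen by measured values, the differences in accessibility between DDC-treated and untreated biliary cells or hepatocytes in these same libraries. Each gene was given the regions of the deposited ATAC-seq matrix whose midpoint lay inside its RefSeq body on mm10, or was nearer to it than to any other protein-coding gene and within 50 kb. That gave 20 of the 93215 nuclear regions to the 8 genes, of the 16625 protein-coding genes that had a region. ATAC-seq uses a transposase that inserts into DNA not covered by nucleosomes, so reads pile up where chromatin is open. It reports neither transcription nor protein.

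The study sorted cells directly from mouse liver into 5 groups of 3 libraries. Reprogrammed hepatocytes, biliary cells and hepatocytes came from mice treated with DDC, and biliary cells and hepatocytes came from untreated mice. DDC is a dihydrocollidine compound, given to mice to injure the bile ducts, and under it some hepatocytes take on features of duct cells. The labels used here give no strain, genotype, age, dose or duration, and no marker by which reprogrammed cells were sorted. They do not say whether the libraries of a group came from separate animals, so the p-values speak only of variation from library to library, which may be technical. In bulk material, fewer cells with open chromatin and less opening per cell cannot be told apart.

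Surface epithelia meet the outside world with layered defences. Lce1m belongs to the late cornified envelope family, whose proteins are cross-linked under the membrane of dying skin keratinocytes, and Pglyrp4 is a secreted peptidoglycan recognition protein that kills bacteria. The trefoil factors Tff1, Tff2 and Tff3 are small stable peptides secreted with mucus that help epithelium close after damage, and their genes sit side by side. Muc16 is a very large membrane mucin, and Msln (mesothelin) is a membrane-anchored protein that binds it, both familiar from mesothelium. Prss22 is a trypsin-like serine protease known from airway epithelium. In the liver, the cells lining the bile ducts are the ones that carry an epithelial surface with mucus.

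RefSeq promoter windows (GRCm38.p6, 250 bases before to 50 after the start, 5′ to 3′ on the minus strand) were matched for 2 of the 8 genes, Lce1m and Muc16, and both are shown, to set the regions that carried their signal against the gene start. They lie at chr3:93019012-93019311 (Lce1m) and chr9:18674554-18674853 (Muc16), and are printed in lower case throughout.
Lce1m: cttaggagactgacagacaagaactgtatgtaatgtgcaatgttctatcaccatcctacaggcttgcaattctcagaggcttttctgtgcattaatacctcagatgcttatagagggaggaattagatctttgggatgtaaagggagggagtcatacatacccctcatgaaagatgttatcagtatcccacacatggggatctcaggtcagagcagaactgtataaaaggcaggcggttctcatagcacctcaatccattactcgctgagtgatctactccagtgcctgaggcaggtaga
Muc16: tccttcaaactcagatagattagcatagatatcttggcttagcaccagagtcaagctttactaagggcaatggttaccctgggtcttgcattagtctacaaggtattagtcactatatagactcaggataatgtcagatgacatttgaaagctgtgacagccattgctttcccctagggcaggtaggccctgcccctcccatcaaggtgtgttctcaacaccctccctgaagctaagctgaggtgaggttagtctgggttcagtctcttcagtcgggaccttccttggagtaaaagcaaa
No deposited region overlapped either window. The nearest region lay 3868 bp from the Lce1m window and 28048 bp from the Muc16 window. Both windows were searched on both strands for AP-1 (TGANTCA), TEAD (GGAATG), GRHL (AACCNGGTT) and HNF4 (CAAAGNNCA), and held 0 matches to any of them. Of 32851 RefSeq promoters, 7.81% held the AP-1 letters, 14.7% those of TEAD, 0.271% those of GRHL and 6.36% those of HNF4.

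Levels are given as nuclear RPM, a region's reads after scaling each library to 1000000 nuclear reads, and a gene's level is the sum over its regions. Reads in nuclear regions numbered 4756891 to 9829886 in reprogrammed, 5151190 to 10395918 in DDC biliary and 1191409 to 2342643 in DDC hepatocyte libraries. They numbered 2439831 to 4389653 in untreated biliary and 201705 to 605309 in untreated hepatocyte libraries. Of all reads in regions, 63.1 to 84.2% were mitochondrial in untreated hepatocytes and 29.1 to 42.4% in DDC hepatocytes, against 4.69 to 21.9% in the other 3 groups. A single read was therefore worth 1.65 to 4.96 nuclear RPM in untreated hepatocytes, and low levels there rest on a handful of reads. The summed signal of 8 biliary marker genes was 816 to 930 nuclear RPM in reprogrammed, 1152 to 1290 in DDC biliary, 258 to 352 in DDC hepatocyte, 1119 to 1232 in untreated biliary and 284 to 421 in untreated hepatocyte libraries. That of 9 of 10 hepatocyte marker genes, the tenth having no region, was 684 to 1320, 456 to 880, 3543 to 4945, 676 to 1443 and 5326 to 6719 nuclear RPM in those groups, in that order, so biliary and hepatocyte labels matched their markers.

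**Figure D1:**
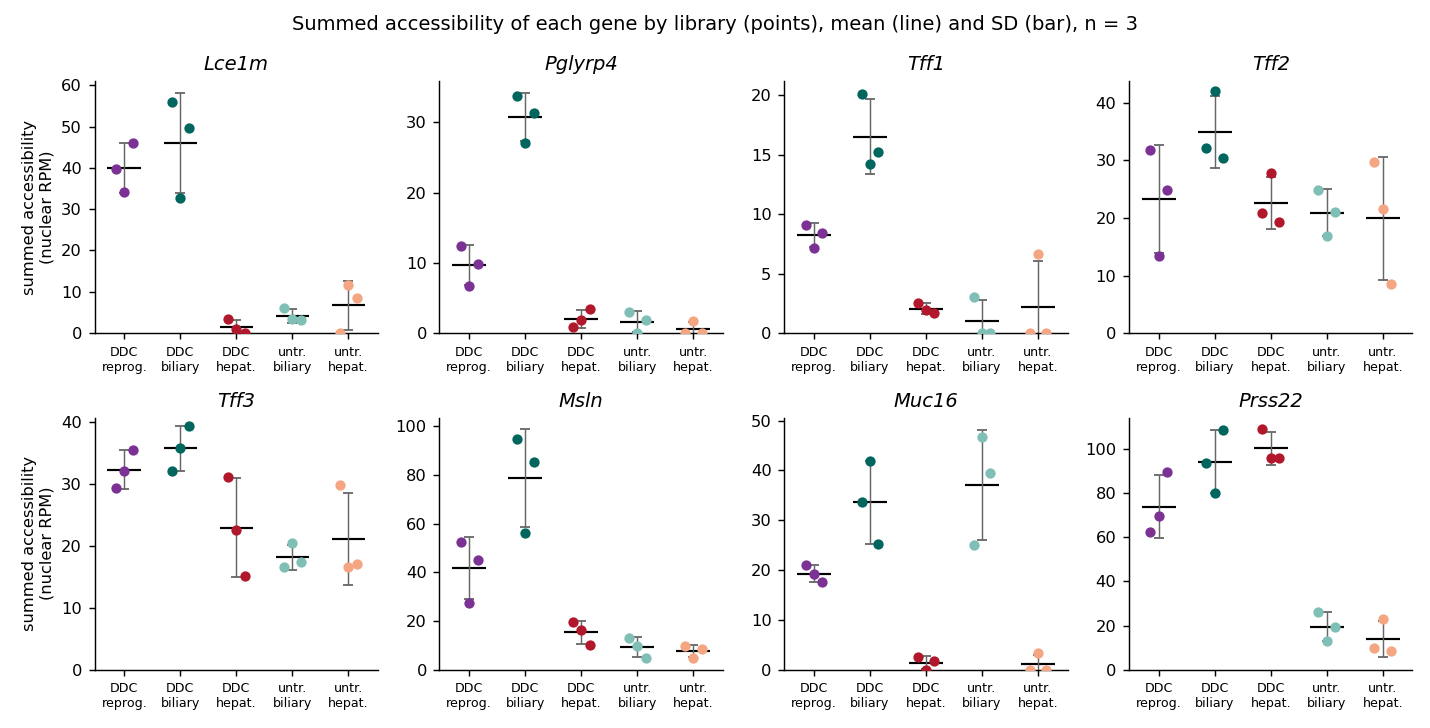
Summed accessibility of each gene (y axis, nuclear RPM, a separate scale per gene) in the 5 groups, with 1 point per library, a line for the mean and a bar for the SD (n = 3). Lce1m, Pglyrp4, Tff1 and Msln are low in both untreated groups, Muc16 is as high in untreated as in DDC biliary cells, and Prss22 is high in all 3 DDC groups.

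In biliary cells, 7 of the 8 genes had all 3 DDC libraries above all 3 untreated ones, where 20.9% of all 16273 genes tested did so. This contrast chose the genes and is described without a test. The median difference over the 8 genes was 2.64 on the scale of log2(nuclear RPM + 1), on which every difference below is given, beside -0.01 over all genes. In hepatocytes, 2 of the 8 (Msln and Prss22) had DDC libraries all above untreated ones, beside 14.0% of all genes, with a median difference of 0.50 beside 0.21 over all genes. Marker signal of other cell types also differed in biliary cells. The sum over the 4 of 7 macrophage genes with a region was 151 to 168 nuclear RPM in DDC and 117 to 129 in untreated biliary libraries. That over 3 of 7 lymphocyte genes was 10.7 to 15.3 nuclear RPM in DDC and 4.92 to 9.45 in untreated biliary libraries, and that over 3 of 7 neutrophil genes 8.54 to 8.75 in DDC and 5.92 to 7.79 in untreated ones. All 7 endothelial genes summed to 111 to 137 nuclear RPM in DDC and 74.5 to 104 in untreated biliary libraries. None of these ranges overlapped. The endothelial genes differed in direction by their means in DDC and untreated biliary cells. Pecam1 (56.0 and 27.4 nuclear RPM), Cdh5 (23.6 and 13.7), Tek (7.33 and 2.45) and Stab2 (28.8 and 27.2) were higher after DDC. Kdr (2.97 and 5.55), Lyve1 (6.53 and 8.93) and Clec4g (1.52 and 2.23) were lower. Of the macrophage genes, Csf1r was lower (41.7 and 44.6), and Cd68, Marco and Cd14 were higher. Hepatocytes differed in marker signal too. Their macrophage sum was 120 to 185 nuclear RPM in DDC and 77.6 to 109 in untreated libraries, and the endothelial sum 167 to 188 and 114 to 154. Within these sums, Marco, Cdh5, Kdr and Clec4g had lower means after DDC. The hepatocyte marker sum was lower after DDC, also without overlap, while lymphocyte and neutrophil sums overlapped. The part of these cell types in the differences of the 8 genes, in biliary cells or hepatocytes, was not tested. Between the injured cell types, 7 of the 8 genes had all DDC biliary libraries above all DDC hepatocyte libraries, beside 29.1% of all genes, and Prss22 was the one whose groups overlapped. The heading of barrier genes opened by injury thus described Lce1m, Pglyrp4, Tff1, Msln and Prss22. Muc16 lay outside it, and Tff2 and Tff3 came under it at single regions more than in their sums.

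Lce1m had a single region, chr3:93025218-93027511, which lay 7.30 kb upstream of its body with Crct1, the next gene, 10.7 kb away. It measured 39.8, 34.1 and 46.0 nuclear RPM in reprogrammed cells, 55.9, 32.6 and 49.6 in DDC biliary cells, and 3.41, 0.958 and 0 in DDC hepatocytes. In untreated mice it measured 6.05, 3.28 and 3.19 nuclear RPM in biliary cells and 0, 11.6 and 8.52 in hepatocytes, where 9 reads made up the whole signal. Reprogrammed and DDC biliary libraries overlapped each other and lay above every library of the other 3 groups. The mean was 11-fold higher in DDC biliary cells (46.0 ± 12.0) than in untreated ones (4.17 ± 1.62; SD, n = 3 each). Lce genes come in clusters, and Lce3a to Lce3e, neighbours on the low-coordinate side, had no region. The neighbours Crct1 and Lce3f, the 2 of 8 within 100 kb that had one, did not pass the test between DDC and untreated biliary cells (0.38 ± 0.53 and 0.79 ± 0.41, SE).

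Pglyrp4 had 2 regions on either side of its body, one 1.27 kb below it at chr3:90725338-90725945 and one 8.70 kb above it at chr3:90749482-90750956. Their sum was 12.4, 6.71 and 9.88 nuclear RPM in reprogrammed cells, 33.8, 27.0 and 31.4 in DDC biliary cells, and 0.854, 1.92 and 3.36 in DDC hepatocytes. Untreated biliary cells gave 3.02, 0 and 1.82 nuclear RPM, and untreated hepatocytes 1 read in all. The 3 DDC groups did not overlap: biliary cells were highest, reprogrammed cells between, and hepatocytes overlapped the untreated cells. The 2 regions differed in this. The lower region stood at 5.70, 3.97 and 5.68 nuclear RPM in reprogrammed cells and at 10.2, 8.15 and 13.4 in DDC biliary cells, with no read in any DDC hepatocyte library. The upper region stood at 6.69, 2.75 and 4.2 nuclear RPM in reprogrammed cells and at 23.6, 18.8 and 18.0 in DDC biliary cells, against 0.854, 1.92 and 3.36 in DDC hepatocytes. Reprogrammed and hepatocyte libraries thus overlapped at the upper region and not at the lower one. Of the 3 neighbours with a region, all S100 genes, S100a7a and S100a9 could be tested and neither passed between DDC and untreated biliary cells.

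The trefoil factor genes held 9 regions on chromosome 17, and these did not move together. Tff1 had a single region inside its body, chr17:31162201-31163274. It measured 9.10, 7.12 and 8.41 nuclear RPM in reprogrammed cells, 20.1, 14.2 and 15.2 in DDC biliary cells and 2.56, 1.92 and 1.68 in DDC hepatocytes. Without injury it measured 3.02, 0 and 0 nuclear RPM in biliary cells and 0, 6.61 and 0 in hepatocytes, from 4 reads. Again the 3 DDC groups did not overlap, and DDC biliary cells (16.5 ± 3.16) stood 16.4-fold above untreated ones (1.01 ± 1.75, from 8 reads).

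Tff2 and Tff3 had 4 regions each, and their sums blurred regions of different behaviour. The Tff2 sum was 31.8, 13.3 and 24.8 nuclear RPM in reprogrammed cells, 32.1, 42.1 and 30.5 in DDC biliary cells and 20.9, 27.8 and 19.3 in DDC hepatocytes, against 24.9, 16.8 and 21.0 in untreated biliary cells and 29.7, 21.5 and 8.52 in untreated hepatocytes. Within it, the region at the high-coordinate end of the body, chr17:31143931-31145085, measured 19.2, 5.90 and 9.25 nuclear RPM in reprogrammed cells, 18.4, 22.7 and 15 in DDC biliary cells, 0, 0 and 1.68 in DDC hepatocytes, 5.29, 5.74 and 6.61 in untreated biliary cells and 0 in all 3 untreated hepatocyte libraries. It was the one Tff region already open in every untreated biliary library while at 0 in every untreated hepatocyte library, besides a weaker one at chr17:31136519-31136778. The region at chr17:31152202-31153359, almost midway between Tff2 (8.50 kb) and Tff1 (8.62 kb), ran the other way among injured cells. It measured 9.75, 5.80 and 10.9 nuclear RPM in reprogrammed cells and 8.85, 16.1 and 11 in DDC biliary cells, against 17.9, 25.9 and 16.8 in DDC hepatocytes. All 3 hepatocyte libraries lay above all 6 others.

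The Tff3 sum was 29.3, 32.1 and 35.5 nuclear RPM in reprogrammed cells, 32.1, 35.7 and 39.4 in DDC biliary cells and 31.2, 22.5 and 15.1 in DDC hepatocytes. Untreated biliary cells gave 16.6, 20.5 and 17.3 nuclear RPM and untreated hepatocytes 29.7, 16.5 and 17.0. Most of this came from chr17:31133550-31135045, which was open in all 5 groups, with means of 22.7 ± 2.93 in reprogrammed, 21.9 ± 2.40 in DDC biliary, 19.0 ± 5.0 in DDC hepatocyte, 15.7 ± 2.80 in untreated biliary and 20.0 ± 8.66 nuclear RPM in untreated hepatocyte libraries. The region that separated the groups was its neighbour, chr17:31130835-31131867, 1.74 kb above the body. It measured 8.0, 4.48 and 10.1 nuclear RPM in reprogrammed cells and 11.9, 10.9 and 14.9 in DDC biliary cells, against 0.854, 0 and 0 in DDC hepatocytes. In untreated mice it gave 2.27, 0 and 1.59 nuclear RPM in biliary cells and 0, 3.30 and 0 in hepatocytes, so DDC biliary cells stood 9.75-fold above untreated ones. Of the neighbours Abcg1, Tmprss3, Ubash3a and Rsph1, none passed the test between DDC and untreated biliary cells.

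**Figure D2:**
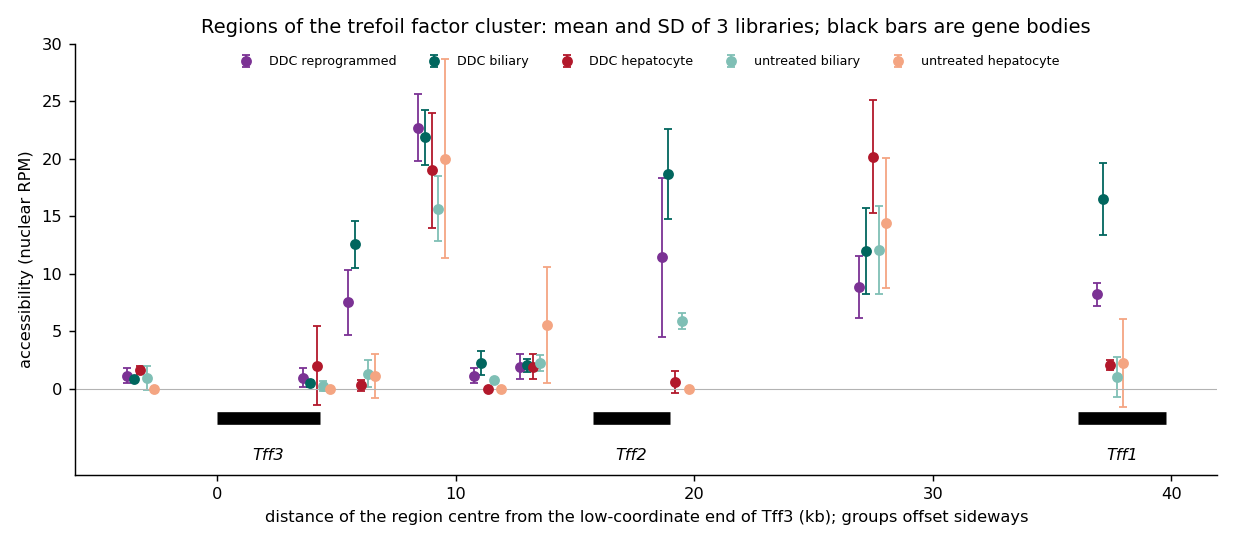
Accessibility (y axis, nuclear RPM) of the 9 regions around the trefoil factor genes, placed by the distance of the region centre from the low-coordinate end of Tff3 (x axis, kb), with 1 point per group for the mean and a bar for the SD of 3 libraries. DDC biliary cells are highest, at 12.6, 18.7 and 16.5, in the region 1.74 kb above Tff3, the one at the end of Tff2 and the one inside Tff1, where DDC hepatocytes average 0.285, 0.56 and 2.05, while the tallest region next to Tff3 is open in all groups and the one between Tff2 and Tff1 is highest in DDC hepatocytes.

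Msln had 2 regions, of which chr17:25753074-25758015, 4942 bp wide and reaching into the body from the high-coordinate side, held most of the signal. The sum was 52.5, 27.5 and 45.2 nuclear RPM in reprogrammed cells, 94.7, 56.1 and 85.2 in DDC biliary cells and 19.6, 16.3 and 10.1 in DDC hepatocytes. In untreated mice, biliary cells gave 13.2, 9.84 and 4.78 nuclear RPM and hepatocytes 9.92, 4.96 and 8.52 from 7 reads. The 3 DDC groups did not overlap, and biliary cells stood 8.47-fold higher after DDC (78.7 ± 20.1) than without it (9.28 ± 4.25). DDC hepatocytes also lay above untreated ones, 1.97-fold by the means. None of the 14 neighbours within 100 kb that could be tested passed between DDC and untreated biliary cells. Mslnl, the closest at 259 bp, had no region.

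Muc16 was the exception. Its signal came from a region inside the body near its 3′ end, chr9:18498416-18499605, since the other one, 28.2 kb above the body, was close to 0. The sum was 21.0, 19.1 and 17.7 nuclear RPM in reprogrammed cells, 33.6, 41.9 and 25.2 in DDC biliary cells and 2.56, 0 and 1.68 in DDC hepatocytes. Untreated biliary cells gave 24.9, 46.7 and 39.4 nuclear RPM, a range that covered that of DDC biliary cells, and untreated hepatocytes 2 reads in all. The difference between DDC and untreated biliary cells was -0.12. It was the one gene of the 8 whose untreated biliary libraries all lay above the untreated hepatocyte libraries (26.7% of all genes did), so it was open in biliary cells with and without injury.

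Msln and Muc16 are both known from mesothelium, the sheet of cells over the liver surface. The summed signal of 8 mesothelial marker genes was 172 to 212 nuclear RPM in reprogrammed, 160 to 204 in DDC biliary, 181 to 187 in DDC hepatocyte, 158 to 166 in untreated biliary and 190 to 283 in untreated hepatocyte libraries. The 8 genes differed within that sum. Wt1 averaged 71.0, 58.3, 35.8, 40.8 and 49.8 nuclear RPM in those groups, in that order, and Aldh1a2 73.7, 82.1, 33.7, 63.1 and 18.9. Both were higher in every DDC biliary library than in every untreated biliary one, beside 20.9% of all genes. They were also higher in every reprogrammed library than in every DDC hepatocyte one, beside 25.3%. Gpm6a was lower in every DDC biliary library than in every untreated biliary one (means of 18.8 and 24.5 nuclear RPM). Bnc1 (6.41 and 8.91), Rspo1 (2.20 and 3.88) and Upk1b (0.84 and 1.99) also had lower means in DDC than in untreated biliary cells. Lrrn4 averaged 24.4, 16.2, 95.5, 17.4 and 106 nuclear RPM, so it made up much of the hepatocyte sums. Upk3b averaged 0.42, 0.68, 0.28, 0.20 and 0 nuclear RPM, and Upk1b was at 0 in every DDC hepatocyte library. Their part in the differences of Msln and Muc16 was not tested. For skin, 6 of 8 squamous and basal marker genes had a region and summed to 29.1 to 48.6 nuclear RPM in reprogrammed, 38.2 to 41.2 in DDC biliary, 49.5 to 57.5 in DDC hepatocyte, 27.9 to 31.4 in untreated biliary and 52.9 to 144 in untreated hepatocyte libraries. In this sum DDC biliary libraries thus lay above untreated biliary ones and below both hepatocyte groups, but its genes differed. Trp63 averaged 17.0 nuclear RPM in DDC biliary and 39.5 in DDC hepatocyte libraries, and Krt5 1.13 and 3.91. By the same means Ivl (11.3 and 3.37), Krt13 (1.55 and 0.32), Dsc3 (5.75 and 4.25) and Dsg3 (3.14 and 2.95) went the other way. For mucous cells, 5 of 7 goblet and gastric marker genes summed to 17.9 to 29.8 nuclear RPM in reprogrammed, 26.1 to 32.6 in DDC biliary, 25.6 to 38.6 in DDC hepatocyte, 25.3 to 40.6 in untreated biliary and 28.1 to 69.4 in untreated hepatocyte libraries. The part of these 2 lists was not tested either. No region was tied to Krt14, Krt6a, Gkn1 or Gkn2.

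Prss22 was open in all 3 injured groups, hepatocytes included. The sum of its 4 regions was 62.1, 69.4 and 89.6 nuclear RPM in reprogrammed cells, 93.7, 80.2 and 108.6 in DDC biliary cells and 108.9, 95.8 and 95.7 in DDC hepatocytes. Untreated biliary cells gave 26.1, 13.1 and 19.1 nuclear RPM and untreated hepatocytes 9.92, 23.1 and 8.52. The DDC groups overlapped, apart from reprogrammed cells and hepatocytes, and none overlapped an untreated group. By the means, DDC biliary cells stood 4.84-fold above untreated ones and DDC hepatocytes 7.23-fold above untreated ones, the last from 18 reads.

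The same total was reached at different places. The region over the body, chr17:23997545-24001246, measured 38.1, 46.9 and 60.1 nuclear RPM in reprogrammed cells, 66.9, 58.8 and 89.6 in DDC biliary cells and 39.7, 23.0 and 31.9 in DDC hepatocytes, against 13.6, 8.61 and 7.29 in untreated biliary cells and 0, 9.91 and 0 in untreated hepatocytes. The region 6.86 kb above the body, chr17:24007047-24008116, measured 14.0, 13.2 and 22.9 nuclear RPM in reprogrammed cells, 14.1, 10.5 and 9.77 in DDC biliary cells and 60.2, 62.2 and 57.1 in DDC hepatocytes, against 4.53, 0.820 and 1.37 in untreated biliary cells and 0, 9.91 and 8.52 in untreated hepatocytes. Among injured cells, biliary libraries all lay above hepatocyte libraries at the body and all below them at the outer region, where the mean was 59.8 ± 2.60 in hepatocytes. The other 2 regions were low, at 23992829 with group means of 4.41 to 9.40 nuclear RPM and at 24015527 with means of 0 to 1.91. Close by on the same chromosome lie genes of other trypsin-like proteases. Prss27, 37.5 kb away, rose to 14.6 ± 4.63 nuclear RPM in DDC biliary cells, against 1.55 ± 0.889 in untreated ones (2.62 ± 0.52, SE; limma adjusted p = 0.0134). Prss30, 13.0 kb away, averaged 38.2 ± 7.33 nuclear RPM in DDC biliary cells and 8.29 ± 2.71 in untreated ones and did not pass (2.10 ± 0.90; limma adjusted p = 0.244).

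**Figure D3:**
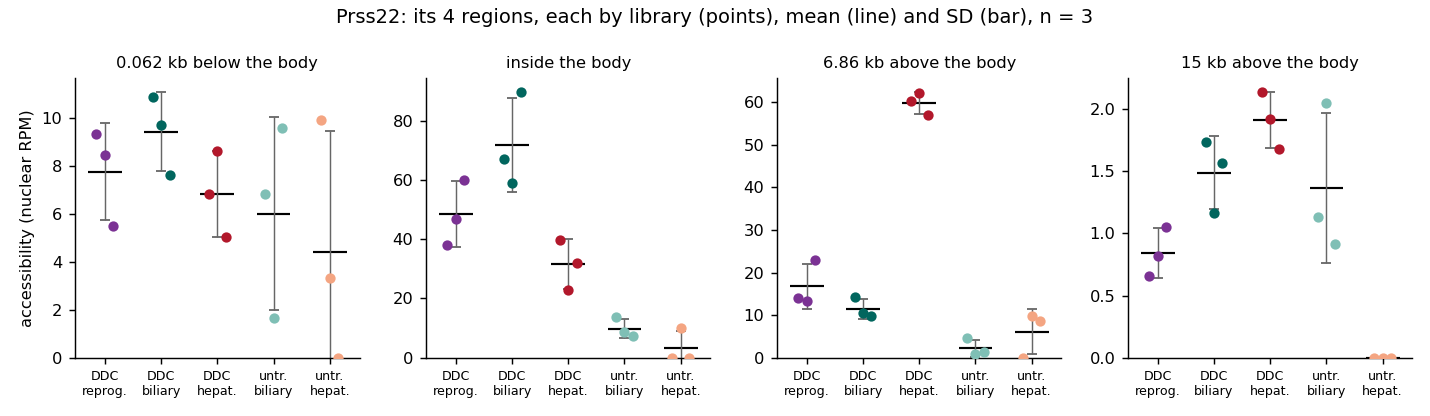
The 4 regions of Prss22 from low to high coordinate, each with its own y axis (nuclear RPM), with 1 point per library, a line for the mean and a bar for the SD (n = 3). At the region inside the body DDC biliary cells are highest, and at the region 6.86 kb above it the 3 DDC hepatocyte libraries at 57.1 to 62.2 stand above all others.

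Reprogrammed libraries stand in neither contrast of DDC with untreated cells of the same type, and were tested against the other injured cells. These tests are not independent of the choice of genes, since the DDC hepatocyte and DDC biliary libraries are shared and earlier results of all libraries were known. Limma was fitted to log2(nuclear RPM + 1) of all genes in all 15 libraries, with Benjamini-Hochberg adjustment over the 16273 genes with a mean of at least 1 nuclear RPM. All 8 genes passed that filter, as did 16 of their 20 regions.

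Against DDC hepatocytes, 4 of the 8 genes were called higher in reprogrammed cells (Lce1m, Muc16, Pglyrp4 and Msln), beside 7.8% of all genes, and 0 lower, beside 6.43%. With the deposited scaling, which counts mitochondrial reads, those shares of all genes were 22.1% and 2.65%. The median difference was 1.49 over the 8 genes and 0.12 over all genes. Lce1m rose most, to 40.0 ± 5.98 nuclear RPM in reprogrammed cells against 1.46 ± 1.76 in hepatocytes (4.31 ± 0.76, SE; limma adjusted p = 0.00196). Muc16 rose to 19.3 ± 1.70 nuclear RPM in reprogrammed cells against 1.41 ± 1.30 in hepatocytes (3.25 ± 0.59; limma adjusted p = 0.00227). Lce1m and Muc16 kept their calls under every alternative tried. Pglyrp4 (1.86 ± 0.57; limma adjusted p = 0.0393) and Msln (1.39 ± 0.42; limma adjusted p = 0.0361) were higher in 3 of 3 libraries but sat close to the threshold. Without any of 5 of the 6 libraries compared, Pglyrp4 was no longer called, with adjusted p of 0.0714 to 0.151, nor was it with a pseudocount of 0.5 (adjusted p = 0.0844). Msln was not called without reprogrammed library 1 or 3 or hepatocyte library 2 or 3, with adjusted p of 0.0822 to 0.161.

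Tff1 was higher in all 3 reprogrammed libraries than in all 3 hepatocyte libraries and did not pass (1.60 ± 0.70; limma adjusted p = 0.150). It did pass when the untreated hepatocytes were left out of the fit (limma adjusted p = 0.00829), which called 35% of all genes. With it, 5 genes had reprogrammed libraries all above hepatocyte ones, beside 25.3% of all genes. Prss22 alone had them all below, beside 16.2% of all genes, and did not pass (-0.45 ± 0.32; limma adjusted p = 0.405). The sums of Tff2 (-0.03 ± 0.42) and Tff3 (0.53 ± 0.31) did not pass either, with adjusted p of 0.981 and 0.298 by limma.

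Single regions were tested as well. Of the 20 regions, 5 were called higher in reprogrammed cells than in DDC hepatocytes, beside 8.14% of all 79075 regions tested, and 0 lower, beside 6.06%. They were those of Lce1m and Muc16, the lower Pglyrp4 region (2.60 ± 0.44; limma adjusted p = 0.00288), the Tff2 region at 31143931 (3.02 ± 0.51; limma adjusted p = 0.00290) and the Tff3 region at 31130835 (2.73 ± 0.62; limma adjusted p = 0.0103). Against a floor of 3 reads in the 3 hepatocyte libraries pooled (0.534 nuclear RPM), the lower Pglyrp4 region was at least 9.58-fold higher in reprogrammed cells. The Tff3 region missed the threshold without reprogrammed library 1 (adjusted p = 0.0511). The outer Prss22 region was at 16.7 ± 5.38 nuclear RPM in reprogrammed cells and 59.8 ± 2.60 in hepatocytes. It did not pass (-1.82 ± 0.70; limma adjusted p = 0.0934). It was called lower in 6 alternatives, among them edgeR (adjusted p = 3.41e-05), which called 13.4% of all regions lower. Prss22 was high in the DDC hepatocyte libraries that helped choose the genes. That can by itself place its differences below 0, in the sum and at this region, so nothing is read from their direction. The Tff2 region at 31152202 (-1.12 ± 0.42; limma adjusted p = 0.0822) was called lower in 5 alternatives. Biliary marker signal was higher and hepatocyte marker signal lower in every reprogrammed library than in every DDC hepatocyte library, and depth was greater. The 7 stellate and mesenchymal marker genes summed to 245 to 270 nuclear RPM in reprogrammed and 132 to 176 in DDC hepatocyte libraries. Of their means, Col1a1 (103 and 36.7), Des (25.7 and 12.4), Pdgfrb (23.2 and 5.27) and Dcn (20.3 and 12.3) were higher in reprogrammed cells. Lrat (13.5 and 22.1) and Reln (63.3 and 65.3) were lower, and Col1a2 (5.56 and 5.54) was level. Lymphocyte markers summed to 5.70 to 14.8 in reprogrammed and 0.958 to 4.27 in DDC hepatocyte libraries. The part of all these in the differences was not tested.

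Against DDC biliary cells, 0 of the 8 genes were called in reprogrammed cells by limma, beside 0.0246% of all genes, and 0 of their regions, beside 0.0%. At an unadjusted limma p under 0.05 there were 2, Pglyrp4 and Msln, beside 5.37% of all genes. On recovered reads edgeR called 2 of the 8, beside 2.88% of all genes, and DESeq2 called 1, beside 5.42%. Most of the genes were high in the DDC biliary libraries that helped choose them, which can by itself place these differences below 0, so nothing is read from their direction. Their median was -0.69, beside 0.05 over all genes. Reprogrammed libraries all lay below biliary ones at 4 genes, Pglyrp4, Tff1, Msln and Muc16, beside 10.6% of all genes. Pglyrp4 was furthest apart, at 9.66 ± 2.84 nuclear RPM in reprogrammed cells and 30.7 ± 3.44 in biliary cells (-1.60 ± 0.57, SE; limma adjusted p = 0.608). With only these 2 groups in the fit, those 4 genes were called lower, beside 4.07% of all genes, with limma adjusted p of 4.60e-04 for Pglyrp4, 0.0149 for Msln, 0.0221 for Tff1 and 0.0307 for Muc16. Lce1m stood at 40.0 ± 5.98 nuclear RPM in reprogrammed and 46.0 ± 12.0 in biliary cells, a difference of -0.18 ± 0.76. The biliary marker sum was lower in every reprogrammed library than in every DDC biliary library, and the stellate and mesenchymal sum was higher (245 to 270 against 212 to 238 nuclear RPM). Within the latter, Col1a1 (103 and 85.5), Reln (63.3 and 43.8), Des (25.7 and 12.7) and Col1a2 (5.56 and 3.95) had higher means in reprogrammed than in DDC biliary cells. Pdgfrb (23.2 and 44.3) and Lrat (13.5 and 14.6) had lower ones, and Dcn (20.3 and 20.1) was level. The part of these marker sums in the 4 lower genes was not tested.

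**Figure D4:**
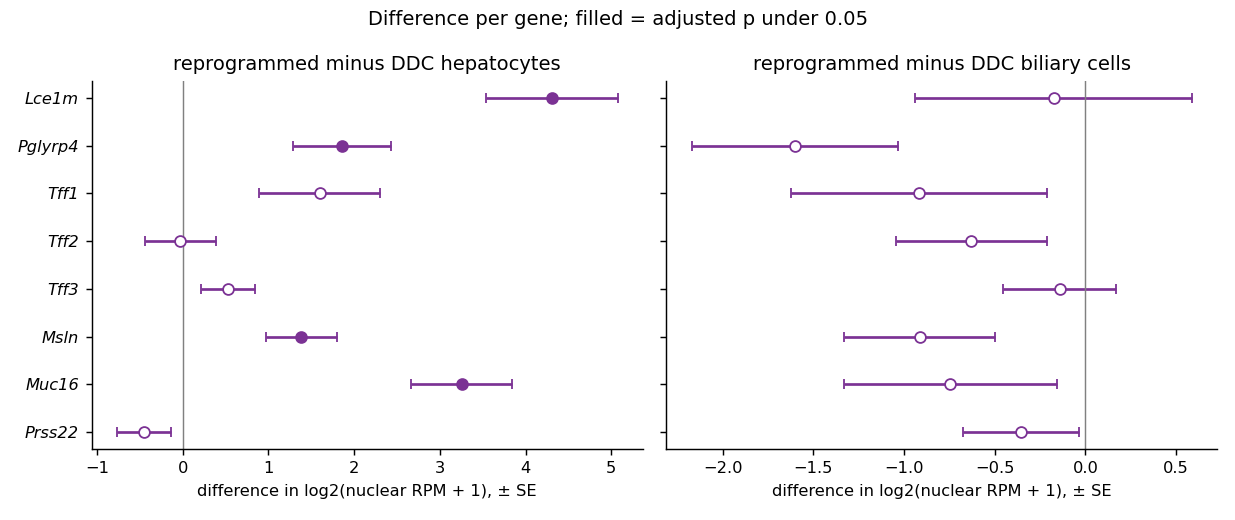
Difference in log2(nuclear RPM + 1) for each gene (x axis, ± SE), reprogrammed minus DDC hepatocytes on the left and reprogrammed minus DDC biliary cells on the right, from the limma fit to 15 libraries; filled points have an adjusted p under 0.05. The 4 filled points are Lce1m, Pglyrp4, Msln and Muc16 against hepatocytes, and no point is filled against biliary cells.

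Other genes of the same systems moved in part with the 8. Their lists were chosen with earlier results of these data known, so the counts are no independent test. Of 25 channel-activating and trypsin-like proteases and inhibitors, 4 rose and 0 fell in DDC biliary cells against untreated ones by limma, beside 2.23% and 1.08% of all genes. Besides Prss27 these included Prss46, with 124 reads in DDC and 0 in untreated libraries (adjusted p = 0.0127), and Tmprss4, a membrane-bound protease, at 49.5 ± 11 against 20.9 ± 6.13 nuclear RPM (adjusted p = 0.0467). Of 28 cornified envelope and epidermal genes, 2 rose and 0 fell: Sprr1a, a small proline-rich envelope protein, at 30.7 ± 4.80 against 7.54 ± 2.63 nuclear RPM (adjusted p = 0.0236), and Cdsn, which holds cornified cells together, at 91.7 ± 5.23 against 35.7 ± 8.25 (adjusted p = 0.0106). Of 18 mucin and mucus genes, 1 rose and 0 fell: the membrane mucin Muc1, at 167 ± 12.2 against 91.8 ± 5.75 nuclear RPM (adjusted p = 0.0189). Of 12 epithelial defence genes, 2 rose and 0 fell: the antiprotease Slpi, at 31.6 ± 2.77 against 6.29 ± 3.70 nuclear RPM (adjusted p = 0.0279), and Lcn2, which withholds iron from bacteria, at 73.7 ± 11.8 against 19.4 ± 4.80 (adjusted p = 0.0494). Without 1 library of either group, the 4 lists together gave 0 to 6 calls in place of 9. The list medians were 0.33 for proteases, 0.45 for cornified envelope, 0.42 for mucins and 1.18 for defence genes.

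In hepatocytes after DDC, 5 proteases rose and 2 fell, 4 cornified envelope genes rose and 1 fell, 2 mucin genes rose and 1 fell, and 2 defence genes rose and 1 fell, beside 9.65% and 3.92% of all genes. Tpsg1, a mast cell type tryptase gene, had 169 reads in DDC and 0 in untreated hepatocytes (4.97 ± 0.41; limma adjusted p = 2.19e-05). Klk8, Cnfn, Muc13 and Lce1d also rose from 0 reads, to DDC hepatocyte means of 1.31, 1.45, 2.69 and 2.87 nuclear RPM (7, 8, 16 and 18 reads). These means lay below 2.88 nuclear RPM, the worth of 3 reads in the pooled untreated hepatocyte libraries. Depth there cannot tell such levels from 0. With only those 2 groups in the fit, 0 genes of the lists were called in place of 18, and without 1 library 7 to 28.

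In reprogrammed cells against DDC hepatocytes, 3 proteases rose and 3 fell, 4 cornified envelope genes rose and 1 fell, 4 mucin genes rose and 0 fell, and 0 defence genes rose and 2 fell, beside 7.8% and 6.43% of all genes. These 17 calls became 9 to 14 without 1 library. Among those that rose were Lce6a, another late cornified envelope gene, at 25.2 ± 8.74 against 3.16 ± 1.64 nuclear RPM (limma adjusted p = 0.00979), and Gcnt3, an enzyme that branches mucin sugars, at 9.09 ± 2.60 against 1.04 ± 0.341 (limma adjusted p = 0.00162). Those that fell included the epidermal protease inhibitor Spink5 and the antibody transporter Pigr, at 19.8 ± 3.30 against 45.8 ± 6.48 nuclear RPM (limma adjusted p = 0.0138). Against DDC biliary cells, 1 gene of the 4 lists was called, beside 0.0246% of all genes: Muc1, at 67.4 ± 12.6 nuclear RPM in reprogrammed and 167 ± 12.2 in biliary cells (-1.31 ± 0.18; limma adjusted p = 0.0177).

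Across the 15 libraries the 8 genes followed each other unevenly. Pearson correlations of log2(nuclear RPM + 1), which all share libraries and depth, ran up to 0.91 for Pglyrp4 with Tff1 and 0.87 for Pglyrp4 with Msln. The lowest were 0.20 for Lce1m with Tff2 and 0.21 for Muc16 with Prss22. Among 14581 other genes with a mean of at least 5 nuclear RPM, those most like the mean of the 8 were Ctla2b (0.96), Tbc1d1 (0.96), Chst15 (0.96), Tmem51 (0.95) and Mall (0.95).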

How the data were processed

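ATAC-seq libraries of sorted mouse liver cells were compared in 5 groups of 3. The submitters' processing notes name mm10, bedtools, Bowtie2, MACS2 and SAMtools; how the peak set was made is not given in the sources used here. Their deposited matrix is headed TPM, but its values are RPM: reads per region per 1000000 reads in all regions, 2 mitochondrial ones included. Low values were whole multiples of 1 read (100% within 0.02 of a whole number, up to 100 reads), which gave read counts. In the first reprogrammed library a read was worth nearly a power of 10, which makes its reads less certain.

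From these, values were rescaled to 1000000 without the mitochondrial regions and summed per gene over regions assigned by midpoint; exons, introns and strand were not annotated. Tests used limma 3.58.1 (trend) in R 4.3.3 on log2(nuclear RPM + 1) of features with a mean of at least 1 nuclear RPM, with Benjamini-Hochberg adjustment and a threshold of 0.05. The scripts were tested on simulated data. Alternatives were the deposited scaling, a pseudocount of 0.5, no filter, other region assignment (10 kb, or by touching), fewer groups in the fit, thinned reads, a replicate block, leaving out libraries, edgeR 4.0.16 (TMM) and DESeq2 1.42.0. Every pair of replicates differed by more than read sampling allows (chi-square over its degrees of freedom, 1.96 to 6.82). Tables were made with Python 3.11.15, numpy 2.4.6 and pandas 2.3.3.

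The 8 genes, and the gene lists, were chosen with earlier results of these data known, so contrasts of DDC with untreated cells are described without tests for the 8. Named besides them were neighbours within 100 kb, up to 3 called genes per list and comparison with the largest change, and the 5 genes most correlated with their mean.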

Additional observations from a re-analysis of the deposited data

Results flagged for a closer look

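Lce1m and 2 further regions had every DDC biliary library above the untreated biliary mean and every DDC hepatocyte library below the untreated hepatocyte mean. The differences are of mean nuclear RPM, DDC minus untreated, and the difference between cell types was not tested. Lce1m, whose sum is its single region, differed by 41.9 in biliary cells and by -5.24 in hepatocytes. The smaller Msln region, from 25751440, differed by 2.83 in biliary cells and by -3.01 in hepatocytes. The Tff3 region from 31130835 differed by 11.3 in biliary cells and by -0.817 in hepatocytes. In each case the untreated hepatocyte mean rested on at most 9 reads over 3 libraries, and the hepatocyte libraries of the 2 groups overlapped.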

How the results depend on the processing

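Counts and shares in this section take calls in either direction, so those under the alternatives can include features called lower. The 4 genes called in reprogrammed cells against DDC hepatocytes, all higher, became 2 to 3 when 1 library was left out. Under the other alternatives they became 3 to 6, beside 13.2 to 35% of all genes in place of 14.2%. The 0 genes called against DDC biliary cells became 4 with only the 2 groups in the fit, 4 with thinned reads, 2 by edgeR and 1 by DESeq2 (0 without any 1 library). Over all genes, edgeR on the recovered reads called 4898 against hepatocytes and 469 against biliary cells, where limma called 2316 and 4. The 5 regions called against hepatocytes became 9 without the untreated hepatocytes and with only the 2 groups, and 10 with the deposited scaling, thinned reads, edgeR and DESeq2 (4 to 5 without 1 library); of all regions, these alternatives called 23 to 37% in place of 14.2%. The 0 regions against biliary cells became 1 with the deposited scaling and without the untreated hepatocytes, 4 with only the 2 groups and with thinned reads, 2 by edgeR and 3 by DESeq2 (0 without 1 library), beside 0.618 to 6.46% of all regions. The alternative without untreated hepatocytes was chosen after seeing the data. No difference of the 8 genes that was called changed direction.

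Counts over the 4 lists moved more. Of reprogrammed against DDC hepatocytes, 17 became 26 (deposited scaling), 32 (without untreated hepatocytes), 28 (only 2 groups and edgeR) and 30 (DESeq2), or 9 to 14 without 1 library. Of reprogrammed against DDC biliary cells, 1 became 0 (deposited scaling), 8 (without untreated hepatocytes), 17 (only 2 groups and thinned), 10 (edgeR) and 13 (DESeq2), or 0 without 1 library. Of DDC against untreated biliary cells, 9 became 14 (deposited scaling), 27 (without untreated hepatocytes), 35 (only 2 groups), 31 (thinned and DESeq2) and 28 (edgeR), or 0 to 6 without 1 library. Of DDC against untreated hepatocytes, 18 became 60 (deposited scaling), 0 (only 2 groups and thinned), 4 (edgeR) and 9 (DESeq2), or 7 to 28 without 1 library. The cause was not tested.

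Whether shared replicate numbers mark paired samples is not given by the labels, and 3 libraries a group cannot settle it. The main fit used no pairing. Correlations of same-numbered deviations were 0.18, 0.03 and 0.17 for reprogrammed with DDC hepatocyte libraries and 0.20, 0.05 and 0.19 for reprogrammed with DDC biliary libraries. They were -0.14, -0.10 and 0.01 for DDC with untreated biliary libraries, so that not every pair passed 0.1. Between reprogrammed and DDC biliary libraries, each sample correlated best with its own number, a hint from the data and not from the design. Reprogrammed libraries 1 and 3 also did so with DDC hepatocyte libraries. With the replicate number as a block, 3 genes were called against hepatocytes, 0 against biliary cells, and 5 and 0 regions. The list counts with that block were 16 and 1 for reprogrammed against DDC hepatocytes and DDC biliary cells, and 9 and 18 for DDC against untreated biliary cells and hepatocytes.

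Depth limits the untreated hepatocytes most: with their 3 libraries pooled, 3 reads are worth 2.88 nuclear RPM. The means of Pglyrp4, Tff1 and Muc16 there lay below that, from 1, 4 and 2 reads. A mean counts each library alike, so the 4 reads of Tff1, all in the deepest library, averaged 2.20 nuclear RPM.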
